A study of Bos taurus with 8 samples.

Results

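Very long genes were taken as the records of the expression table that carry a single transcript identifier, lie on chromosomes 1 to 29 and are listed with a locus of at least 300 kb. The rule used positions only and no expression value. It found 850 of the 36801 records of the table, and they were compared with the 9876 single-identifier records whose loci span 10 to 100 kb. RNA-Seq had been carried out on 8 tissues of cattle (Bos taurus), with 1 library of total RNA each. They were nucleated blood cells, frontal cortex, whole testes, intercaruncular uterus, mammary parenchyma, rumen (a forestomach in which feed is fermented), abomasum (the glandular stomach) and ileum (the last stretch of the small intestine). No treatment was applied. The tissues of the study came from a Hereford cow and her relatives. For the tissue samples of its methylation assay the study lists testes from an adult male, uterus and blood cells from adult females, frontal cortex, mammary gland, abomasum and ileum from juvenile females, and rumen from a male fetus. The labels of the RNA libraries give the tissue alone, and which animal each came from is not given in the sources used here. Because each tissue had 1 library, no difference between tissues has a replicate check and no test was run, and the animal, its sex and its stage cannot be told apart from the tissue.

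Gene length in mammals is set mostly by introns, which are copied into the primary transcript and then spliced out. A polymerase needs hours to cross the longest genes, so a long gene yields a finished transcript slowly. Many of the longest mammalian genes encode adhesion molecules, receptors and ion channels of neurons, whereas genes that act in rapid immune responses are often compact. FPKM, the unit of the table, divides fragments by the length of the spliced transcript, so introns do not enter the divisor.

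The label of very long genes held directly for a minority of the records. The locus column gives an interval that several records can share, and of the 850 records only 143 (16.8%) were alone in their interval. The other 707 (83.2%) shared 285 intervals with 1 or more other records, so that their own span may be shorter than the interval. Among the records of 10 to 100 kb, 6234 (63.1%) were alone. The 428 intervals of at least 300 kb held 1049 records in all, of which 112 had no identifier and 87 had several. Intervals of 2 records held 266 of the very long records, those of 3 to 5 records held 306, and those of more than 5 held 135. In shared intervals the median length available per record was 152 kb, and 66 of the 707 records had 300 kb or more each. No distinct intervals overlapped. Records alone in an interval are therefore described first as very long genes, and the sharing records are called so only by the rule. The extent of an interval comes from the authors' transcript models, and whether reads of this experiment widened it was not tested.

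**Figure D1:**
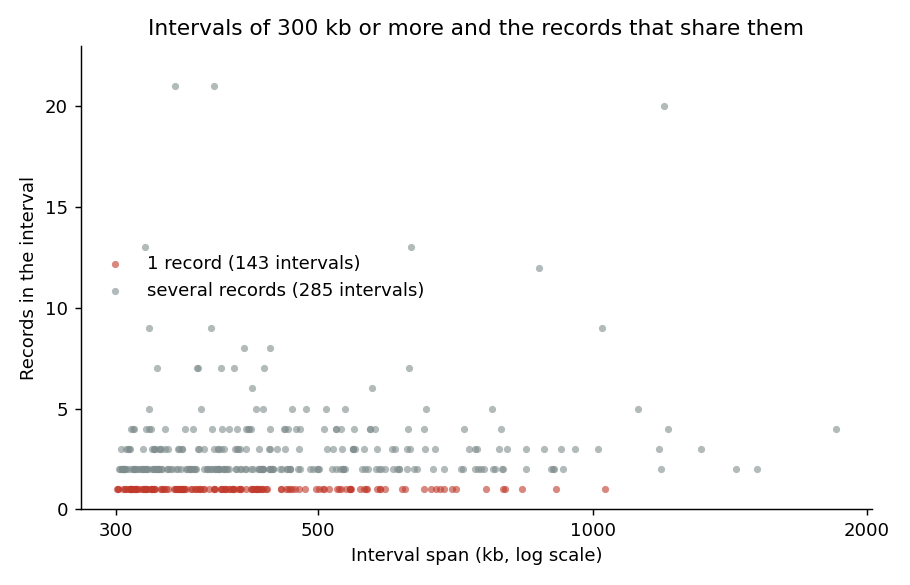
Span of each interval of 300 kb or more (horizontal axis, kb, log scale) against the number of records of the table that lie in it (vertical axis). Each point is 1 of 428 intervals: the 143 red points are intervals with a single record, and the 285 grey points hold up to 21 records.

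The 143 records alone in their interval lay on all 29 autosomes, with 1 to 12 on each and the most on chromosome 4. Their spans had a median of 395 kb, 35 were of 500 kb or more, and 1 exceeded 1000 kb. The identifiers are Ensembl transcript identifiers, which the table does not pair with gene symbols, and none of those of the very long records could be found in the table of RefSeq genes (ARS-UCD2.0) used for lookup. Gene functions and tissue marker genes are for this reason not analysed here, and most loci are named by their position on UMD3.1, the assembly of the table.

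Depth, recovered on the scale of the table, was lowest in mammary gland (6021000 reads) and highest in rumen (15511000 reads). For a transcript of 1000 bases, 1 FPKM corresponded to 4.40 to 11.3 reads, and 3 reads, the approximate 95% upper limit on the expected count where no read is seen, corresponded to 0.264 FPKM in rumen and up to 0.681 FPKM in mammary gland. Frontal cortex, with 9285000 reads, and nucleated blood cells, with 12007000, lay inside this range. A transcript under 1 FPKM can thus still be present, and the limits cover counting error only.

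Very long genes were most widely detected in frontal cortex and least in blood. Of the 143 records alone in their interval, 108 (75.5%) reached 1 FPKM in frontal cortex and 101 (70.6%) in whole testes. Shares were lower in the uterus (82, 57.3%), ileum (81, 56.6%), mammary gland (76, 53.1%), abomasum (72, 50.3%) and rumen (67, 46.9%), and the lowest was that of nucleated blood cells (49, 34.3%). Frontal cortex was the only tissue in which the very long records were detected at least as often as records of 10 to 100 kb alone in their interval, of which 72.6% reached 1 FPKM there. In blood cells 64.7% of those shorter records did so, against 34.3% of the very long ones, and in testes 80.5% against 70.6%. All 21719 single-identifier autosomal records, which include those in shared intervals, were detected less often than the shorter records alone in their interval, with 44.1% in blood, 47.6% in rumen, 50.1% in abomasum, 50.2% in mammary gland, 50.7% in uterus, 50.8% in frontal cortex, 52% in ileum and 56.9% in testes. Against this background the very long records alone in their interval stood higher in frontal cortex and testes, lower in blood, and within 7 percentage points in the other 5 tissues.

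Records that shared an interval of 300 kb or more were detected less often in every tissue. The share at 1 FPKM was 43.3% in testes, 38.6% in frontal cortex, 27.6% in rumen, 25.5% in blood cells and between 31.7% and 34.1% for the other 4 tissues. Of the 707 sharing records, 268 (37.9%) were listed at 0 in all 8 libraries, against 0 of the 143 records alone. Among records of 10 to 100 kb, 19.9% of those in shared intervals and 1.32% of those alone were listed at 0 throughout. Over all 850 records, testes came first (47.9%), frontal cortex second (44.8%) and blood cells last (26.9%).

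**Figure D2:**
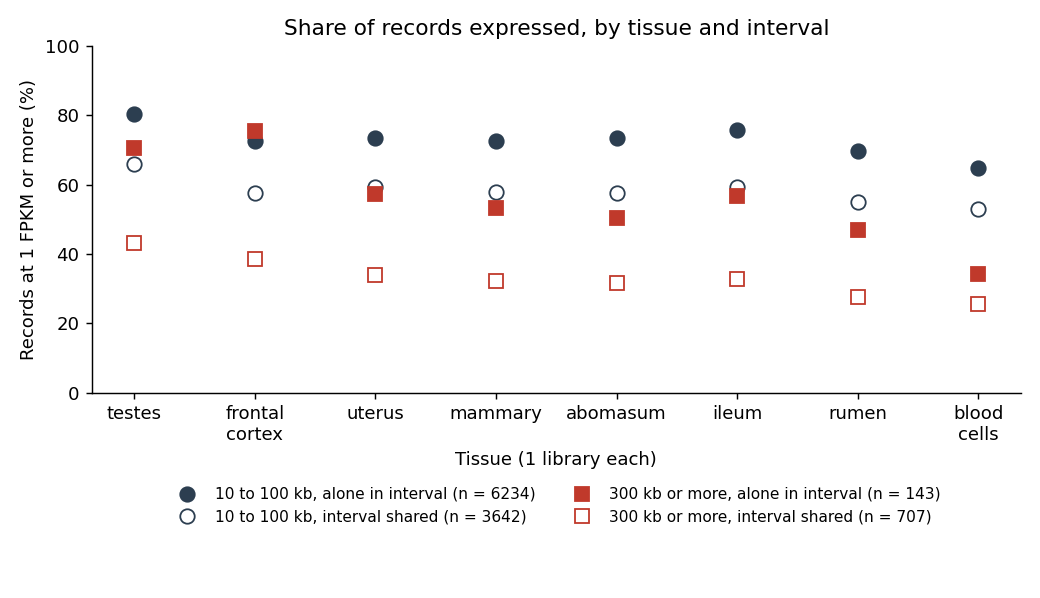
Percent of records at 1 FPKM or more (vertical axis) in each of 8 tissues (horizontal axis, 1 library each). Squares are records in intervals of 300 kb or more and circles those of 10 to 100 kb, filled where the record is alone in its interval and open where the interval is shared. Only in frontal cortex does the filled square (75.5%) reach the filled circle (72.6%), and the gap between them is widest in blood cells (34.3% and 64.7%).

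Levels followed the same order. Over the 127 records alone in their interval that reached 1 FPKM in at least 1 tissue, the median was 5.06 FPKM in frontal cortex, 3.12 in testes, 2.30 in uterus, 1.97 in ileum, 1.77 in mammary gland, 1.65 in abomasum, 1.31 in rumen and 0.133 in nucleated blood cells. This limit kept 11 records through frontal cortex only and 6 through testes only. Over all 143 without it, the medians were 4.37 FPKM in frontal cortex, 2.55 in testes, 1.54 in ileum, 1.53 in uterus, 0.717 in rumen and 0.106 in blood, with mammary gland (1.14) and abomasum (1.08) between, against 5.46 in frontal cortex and 4.996 in blood for the 6234 shorter records. The middle 50% of the 127 records ran from 1.88 to 14.2 FPKM in frontal cortex and from 0 to 3.72 FPKM in blood, so the distributions overlapped. The 5804 records of 10 to 100 kb alone in their interval that reached 1 FPKM somewhere had nearly the same median in blood (6.56 FPKM) as in frontal cortex (6.50 FPKM). Of the 127 very long records, 39 (30.7%) were listed at 0 in blood, against 2 (1.57%) in frontal cortex and 2 (1.57%) in testes. Among those of 10 to 100 kb alone that reached 1 FPKM somewhere, 14.3% were listed at 0 in blood, 7.18% in frontal cortex and 2.52% in testes. Over all 14969 single-identifier autosomal records that did so, the shares were 19.6%, 11.6% and 6.01%.

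Blood was the lowest tissue, ties included, for 71 of the 127 records (55.9%), and frontal cortex for 7 (5.51%). The 127 include 11 records kept through frontal cortex only, 6 through testes only and 0 through blood only. Such records cannot be lowest in the tissue that kept them. Among records of 10 to 100 kb alone in their interval, blood was lowest for 29.6% and frontal cortex for 28.3%. Without ties, blood was the single lowest tissue for 43 of the 127 (33.9%) and frontal cortex for 5 (3.94%), against 19.0% and 21.8% of the shorter records. Paired record by record, 61 of the 143 very long records (42.7%) reached 1 FPKM in frontal cortex and not in blood, and 2 (1.40%) did the opposite. Over all 21719 single-identifier autosomal records these shares were 11.9% and 5.23%, and over those of 10 to 100 kb alone in their interval 14.4% and 6.56%. On the scale of FPKM + 1, 39 of the 127 records (30.7%) stood at least 5-fold higher in frontal cortex than in blood and 1 (0.787%) in the other direction, against 13.6% and 7.92% over all records that reached 1 FPKM in a tissue and 12.6% and 8.30% over those of 10 to 100 kb alone. The 11 records kept through frontal cortex only could count on the cortex side alone. Between frontal cortex and testes, 21 very long records (14.7%) reached 1 FPKM in frontal cortex alone of the pair and 14 (9.79%) in testes alone. The order was the opposite over all records, with 5.1% in frontal cortex alone and 11.2% in testes alone, and over those of 10 to 100 kb alone, with 5.53% and 13.4%.

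The tissue with the highest FPKM was recorded for each record that reached 1 FPKM somewhere. Of the 127 very long records alone in their interval, 48 (37.8%) were highest in frontal cortex and 31 (24.4%) in testes. Across the 14969 single-identifier records of the autosomes that passed the same limit, 15.7% were highest in frontal cortex and 30.7% in testes. The 11 records kept through frontal cortex only were highest there by construction. Among the 116 that reached 1 FPKM in another tissue, 37 (31.9%) were highest in frontal cortex, against 13.9% over all records and 12.6% over those of 10 to 100 kb alone chosen in the same way. The place of testes depended on the cortex library. Without it, testes were highest for 49 of 116 very long records (42.2%), against 35.2% over all records. Uterus was highest for 14 (11.0%, background 7.49%), abomasum for 10 (7.87%, background 9.39%), mammary gland for 7 (5.51%, background 4.88%) and ileum for 7 (5.51%, background 4.52%). Nucleated blood cells were highest for 6 (4.72%) and rumen for 4 (3.15%), where the background was 15% and 12.3%. Frontal cortex thus stood above its background and blood and rumen below theirs, while the counts in uterus, abomasum, mammary gland and ileum were small and lay nearer to it.

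Among the 404 sharing records that reached 1 FPKM, testes came first, as they did in the background. Testes were highest for 138 (34.2%), frontal cortex for 87 (21.5%) and blood for 38 (9.41%). Where an interval of 300 kb or more held at least 2 such records, all of them had the same highest tissue in 22 of 83 intervals (26.5%), against 229 of 888 (25.8%) for intervals of 10 to 100 kb. In intervals with exactly 2 such records the counts were 21 of 52 (40.4%) and 221 of 780 (28.3%).

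**Figure D3:**
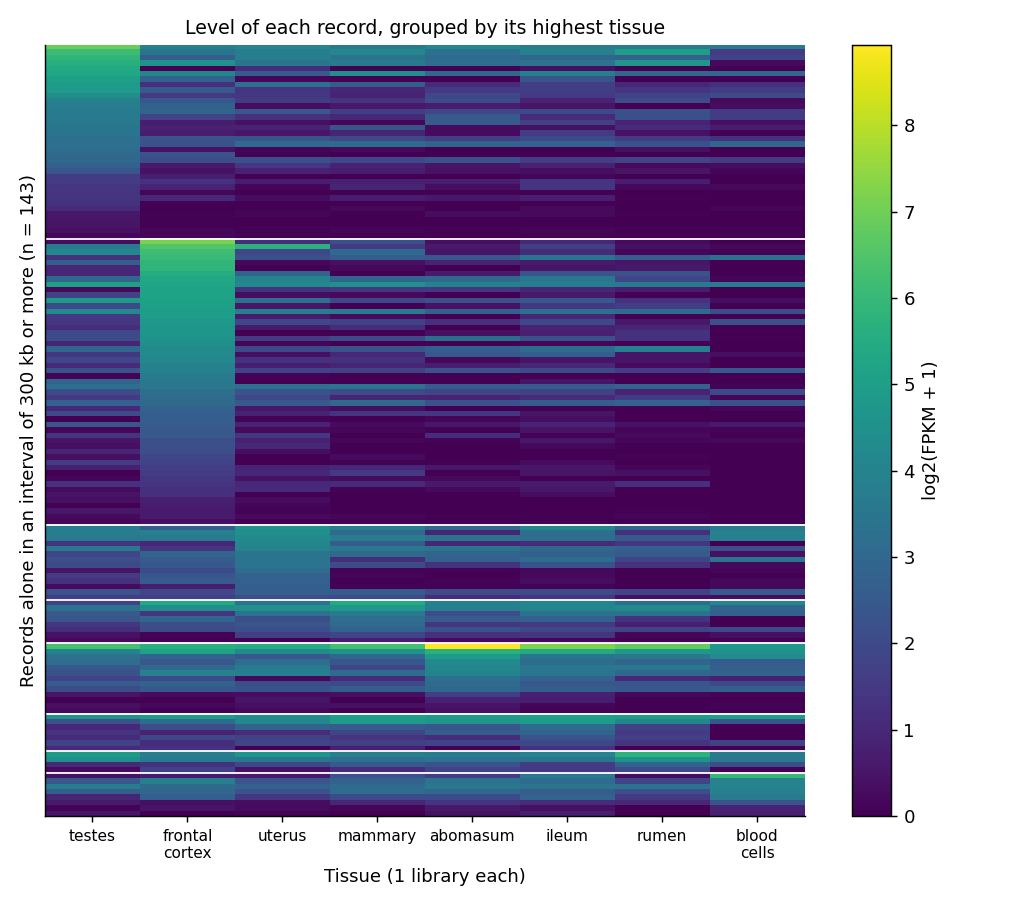
Level of each of the 143 very long records alone in their interval (rows) in 8 tissues (columns, 1 library each), as log2(FPKM + 1) by colour. Rows are grouped by the tissue with the highest value, in the order of the columns, with white lines between groups. The frontal cortex block is the largest, and the blood column is dark for most rows of it.

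Breadth was lower than for records of 10 to 100 kb. Of the 143 records alone in their interval, 39 (27.3%) reached 1 FPKM in all 8 tissues, against 53.7% of those of 10 to 100 kb alone and 35.1% of all single-identifier autosomal records. Of those that reached 1 FPKM in at least 1 tissue, the shares in all 8 were 30.7%, 57.7% and 51.0%. A further 19 (13.3%) reached it in 1 tissue only, against 9.24% of those of 10 to 100 kb alone and 9.64% of all. The tissue was frontal cortex in 11 (7.69%, background over all records 1.47%), testes in 6 (4.20%, background 5.46%), uterus in 1 (background 0.502%) and abomasum in 1 (background 0.479%). It was mammary gland, ileum, rumen or blood in 0, where the background was 0.327%, 0.529%, 0.387% and 0.488%. Another 11 records (7.69%) reached 1 FPKM in the 7 solid tissues and not in blood, against 5.02% of those of 10 to 100 kb alone and 3.64% of all, and 16 (11.2%) did so nowhere, against 6.90% of those of 10 to 100 kb alone and 31.1% of all. The tau index, which is 0 for an even level and 1 for expression in a single tissue, had a median of 0.618 for the very long records alone and 0.649 for those sharing an interval, against 0.385 for records of 10 to 100 kb alone and 0.436 for all.

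Enrichment in a tissue required 1 FPKM or more there and an FPKM + 1 that exceeded the second-highest tissue 5-fold or more. Of the 143 very long records alone in their interval, 16 (11.2%) were enriched in frontal cortex, 5 (3.50%) in testes, 1 (0.699%) in blood and 0 in the other 5 tissues. The testes share rests on few records and was 2.10% with the libraries rescaled to 1 median, 5.59% with a pseudocount of 0.1 and 6.29% without the frontal cortex library. Over all 21719 single-identifier autosomal records, 2.39% were enriched in frontal cortex, 6.36% in testes, 0.879% in blood and 2.2% in 1 of the other 5 tissues. Among the 707 sharing records, 23 (3.25%) were enriched in frontal cortex, 53 (7.50%) in testes and 9 (1.27%) in blood. Of the records that reached 1 FPKM in a tissue, the share enriched in frontal cortex was 12.6% for the very long ones alone in their interval and 5.69% for those sharing one (23 of 404), against 3.22% and 2.76% at 10 to 100 kb and 3.46% over all.

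The 16 records enriched in frontal cortex lay on 13 chromosomes, and their spans had a median of 430 kb. Their cortex level ran from 5.36 to 139.6 FPKM with a median of 31.5 FPKM. The median of the same records was 1.16 FPKM in testes, 0.886 in ileum, 0.511 in uterus, 0.480 in rumen, 0.307 in abomasum, 0.186 in mammary gland and 0 in blood. In blood, 12 of the 16 were listed at 0 and 14 lay below 1 FPKM. Testes were the second tissue for 9 of them. Low values outside cortex follow from the choice of these records. Of the 187 records of 10 to 100 kb alone and enriched in frontal cortex by the same rule, 44.4% were listed at 0 in blood, 79.7% lay below 1 FPKM there and 35.8% had testes second, against 75%, 87.5% and 56.3% of the 16.

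**Figure D4:**
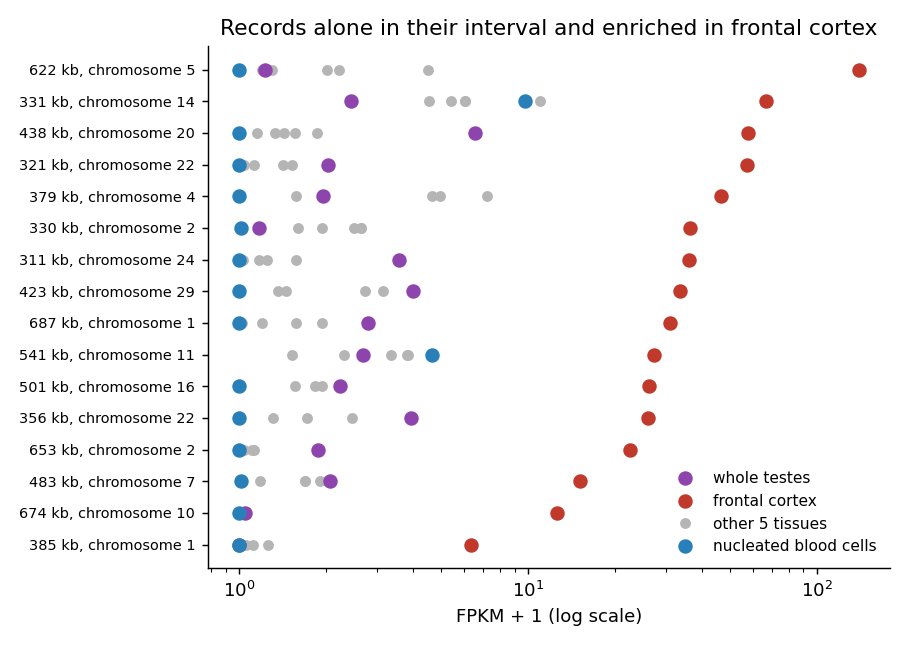
FPKM + 1 (horizontal axis, log scale) in 8 tissues for the 16 very long records alone in their interval and enriched in frontal cortex, 1 row per record, named by span and chromosome and ordered by the cortex value. Red points are frontal cortex (5.36 to 139.6 FPKM), purple testes, blue nucleated blood cells and grey the other 5 tissues, with 1 library each.

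The record with the highest ratio of frontal cortex to the next tissue was ENSBTAT00000008338, which spans 622 kb at chr5:8442639-9064801. It had 139.6 FPKM in frontal cortex, 3.50 in mammary gland, 1.22 in uterus, 1.02 in ileum, 0.304 in abomasum, 0.233 in testes, 0.204 in rumen and was listed at 0 in blood. The ratio of FPKM + 1 to the next tissue was 31.2. A second record, ENSBTAT00000030740, spans 321 kb at chr22:37900572-38221170 and had 56.4 FPKM in frontal cortex, 1.04 in testes, 0.531 in rumen, 0.418 in ileum, 0.130 in mammary gland, 0.0426 in uterus and 0 in abomasum and blood. In both loci a single library was high and the other 7 lay at least 10-fold lower.

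Another 3 of the 5 records with the highest cortex ratio shared their interval. At chr20:61305616-62428538, an interval of 1123 kb with 5 records, frontal cortex had 66.4 FPKM for 1 record, testes 1.18 and the remaining 6 tissues 0.0174 to 0.212. At chr22:33069683-33592094, with 2 records, the level was 26.3 FPKM in frontal cortex and 0.0830 in rumen, and the record was listed at 0 elsewhere. At chr2:118193387-118581613, with 3 records, it was 64.4 FPKM in frontal cortex, 1.87 in ileum, 1.22 in testes, 0.223 in uterus and 0 elsewhere.

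Not every cortex-high record was low elsewhere. At chr7:59782550-60258713 (476 kb, alone), frontal cortex had 89.3 FPKM and uterus 51.1 FPKM, testes 11.8 FPKM, and the other 5 tissues 0.133 to 2.27 FPKM. At chr14:64568865-64899885 (331 kb, alone), frontal cortex had 65.6 FPKM while blood had 8.77 and ileum 10.02, the highest blood level among the 16 enriched records. At chr1:9607091-9921730, which holds 2 records, the most abundant of the cortex-high records had 375 FPKM in frontal cortex but also 357 in abomasum, 237 in mammary gland, 209 in uterus, 154 in ileum, 126 in rumen, 87.1 in testes and 10.8 in blood, so cortex and abomasum were almost level there. At chr27:6264629-6578492, also with 2 records, it was 246 FPKM in frontal cortex, 16.9 in uterus, 8.16 in testes and between 0.603 and 4.04 in each of the remaining 5.

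In testes, 5 records alone in their interval were enriched. ENSBTAT00000050264, which spans 708 kb at chr6:96794893-97503220, had 41.9 FPKM in testes, 1.24 in uterus, 0.263 in ileum and 0 in the other 5 tissues. The record at chr24:49191814-49590561 was the most abundant of them with 121 FPKM in testes, and it was present in every other tissue at 11.8 to 17.1 FPKM. The other 3 had 8.12, 29.1 and 20.3 FPKM in testes and at most 4.75 FPKM elsewhere. The 5 thus comprised loci almost limited to the testes library and loci raised above an even level.

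Among sharing records, the highest testis values stood in a single library. At chr8:82590159-83012179, an interval of 422 kb with 4 records, the testes library had 1456 FPKM for 1 record and the other 7 libraries 0. At chr3:112514756-112898742, with 3 records, the level was 410 FPKM in testes and 0 in the rest. A value of this kind also occurred in rumen, where a record at chr8:571564-925955 had 188 FPKM and was listed at 0 in the other 7. At chr8:70831759-71212773, with 9 records, a record had 1686 FPKM in abomasum, 1013 in mammary gland, 808 in uterus, 169 in blood and 0 in testes, frontal cortex, ileum and rumen. None of these high values belonged to a record alone in its interval, where the highest level was 488 FPKM.

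That level was found in the abomasum at chr23:51112360-51454473, a record of 342 kb alone in its interval. It had 488 FPKM in abomasum, 145 in ileum, 109 in rumen, 79.1 in testes, 78.4 in mammary gland, 48.6 in frontal cortex, 44.7 in uterus and 25.9 in blood. All 8 libraries were high, and the 3 highest were those of the digestive tract. At chr29:49399787-49728355, an interval of 3 records, abomasum had 99.3 FPKM, uterus 7.13, ileum 5.42 and the other 5 tissues 0.0532 to 2.41.

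In blood, 1 very long record alone in its interval was enriched. ENSBTAT00000061453, which spans 701 kb at chr2:53064351-53764966, had 61.4 FPKM in nucleated blood cells, 10.7 in ileum, 3.77 in mammary gland, 2.06 in abomasum and 0.223 to 0.606 in the other 4 tissues. Among sharing records, that at chr28:27729163-28123449 had 280 FPKM in blood and 2.86 to 43.6 elsewhere, and that at chr13:66398104-66730589 had 164 FPKM in blood, 22.1 in ileum and 0.0452 to 13.1 elsewhere. An interval of 1197 kb at chr10:22106908-23304334 held 20 records, of which 18 followed the rule. Of these, 10 reached 1 FPKM and 6 were highest in blood, which adds 6 of the 44 blood-high records among all 850.

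In 1 of the 5 tissues other than frontal cortex, testes and blood, 12 of the 850 records (1.41%) were enriched, against 2.2% over all records. All 12 shared their interval. The loci below are the most abundant and those of highest ratio in their tissue, and not all of them were enriched 5-fold. In the uterus, the record at chr15:38989942-39309725 (2 records in the interval) had 233 FPKM, testes 24.7 and ileum 22.4, and the other 5 tissues 0.888 to 14.6 FPKM. The second most abundant uterine record, at chr5:71475846-71926718, had 136 FPKM in uterus and 20.0 to 96.9 FPKM elsewhere. The uterine record with the highest ratio, at chr26:45844166-46261139, had 44.7 FPKM in uterus, 2.90 in mammary gland, 2.09 in testes and at most 0.736 elsewhere. Another record of the interval at chr6:106483715-107356158 had 55.5 FPKM in mammary gland and 12.6 to 23.2 elsewhere, and that at chr29:48209406-48517280 had 47.3 FPKM in mammary gland and at most 9.13 elsewhere. The highest mammary ratio was found at chr20:1433184-1940221, where mammary gland had 14.4 FPKM, testes 0.0984, and the other 6 tissues 0. In ileum, a record at chr17:6871711-7543797 had 49.5 FPKM, mammary gland 6.21, testes 4.24, frontal cortex 1.34, blood 0.302 and the rest 0. The most abundant ileal record, at chr17:72826634-73152866, was high in several tissues, with 283 FPKM in ileum, 266 in mammary gland, 184 in uterus, 152 in abomasum, 49.3 in blood and 0.522 to 8.14 in the other 3. At chr14:78559808-78964199, rumen (140 FPKM), ileum (139.5) and frontal cortex (106) were high and the other 5 tissues were listed at 0. Each of these shared its interval with at least 1 other record.

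The most even of the very long records was at chr16:45465474-45882293, 417 kb and alone in its interval, with a tau of 0.0521. It had 31.2 FPKM in ileum, 30.8 in blood, 30.3 in mammary gland, 28.5 in frontal cortex, 26.7 in rumen, 26.3 in abomasum, 22.4 in testes and 18.4 in uterus. The next 4 of the 850 shared their intervals and had a tau of 0.0662 to 0.109. The record at chr26:6906080-8343629, an interval of 1438 kb with 2 records, ran from 16.8 FPKM in ileum to 25.9 in testes, and that at chr1:111996909-112455492 from 65.1 FPKM in frontal cortex to 129 in abomasum. The record at chr1:45489051-45822689 ran from 28.5 FPKM in blood to 52.4 in abomasum, and that at chr6:106483715-107356158 from 44.7 in mammary gland to 97.5 in frontal cortex. Great length by this rule was therefore found also among records present at similar levels in all 8 libraries, blood included.

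The widest interval, 1852 kb at chr28:22418883-24270401, held 4 records, of which 3 followed the rule. Of these 3, 1 had 16.3 FPKM in testes, 4.13 in blood and at most 1.14 elsewhere, 1 had 3.88 FPKM in frontal cortex, 1.67 in uterus, 0.408 in testes, 0.231 in ileum and 0 elsewhere, and 1 was listed at 0 in all 8. The widest record alone in its interval, 1032 kb at chr12:66292488-67324791, had 11.3 FPKM in frontal cortex, 6.59 in testes, 0.419 in ileum and 0 in the other 5. The second widest, 913 kb at chr18:5283908-6196774, was even, with 3.78 FPKM in blood, 7.53 in frontal cortex and 3.79 to 7.40 in the other 6 tissues. Even among the widest loci, cortex-high and even patterns thus occurred side by side.

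Span classes were compared among records alone in their interval. In frontal cortex, 72.6% reached 1 FPKM at 10 to 100 kb (n = 6234), 77.1% at 100 to 300 kb (n = 934), 76.9% at 300 to 500 kb (n = 108) and 71.4% at 500 kb or more (n = 35). In blood the shares were 64.7%, 55.5%, 33.3% and 37.1%, and in testes 80.5%, 79.98%, 72.2% and 65.7%. The share of records highest in frontal cortex was 13.9%, 21.4%, 35.5% and 44.1% in the same order, while that in testes was 31.2%, 29.2%, 23.7% and 26.5%. Records kept through frontal cortex only were highest there by construction. They made up 1.41% of the records of 10 to 100 kb and 7.69% of the 143 very long ones. Shares without them were not computed by class. Over the 116 very long records that reached 1 FPKM in another tissue the share was 31.9%, against 12.6% at 10 to 100 kb. The share enriched in frontal cortex was 3.0%, 4.93%, 9.26% and 17.1%. The cortex shares of highest and of enriched records were thus larger in each longer class, whereas the share detected there changed little. Detection in blood was lower at 100 to 300 kb than at 10 to 100 kb, and lower again above 300 kb. From 100 to 300 kb to 300 to 500 kb it also fell in the other 5 tissues. Shares went from 73.02% to 51.9% in mammary gland, 75.8% to 54.6% in ileum, 65.6% to 48.1% in rumen and 73.98% to 57.4% in uterus. The drop above 300 kb was therefore not particular to blood. Within the 143 records, Spearman's rho between span and FPKM ran from -0.094 to 0.010 over the 8 tissues, across records that are not independent replicates.

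**Figure D5:**
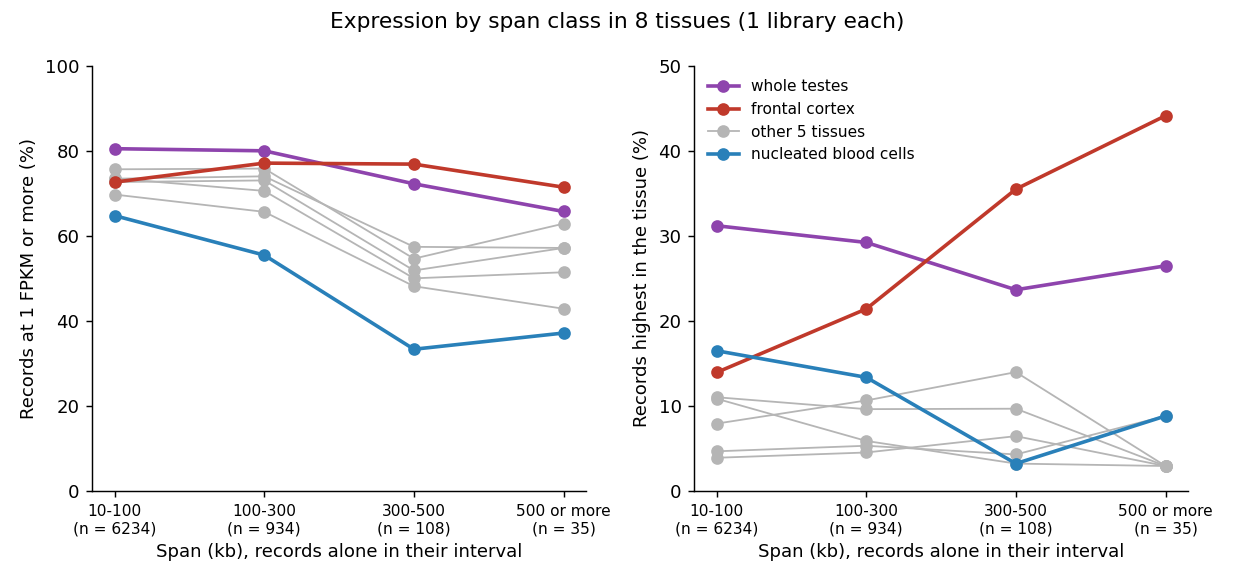
Percent of records at 1 FPKM or more (left) and percent of those with their highest FPKM in a given tissue, among records that reached 1 FPKM somewhere (right), by span class (horizontal axis, kb), for records alone in their interval. Red is frontal cortex, purple testes, blue nucleated blood cells and grey the other 5 tissues. The cortex line on the right includes records kept through frontal cortex only and runs from 13.9% to 44.1%. The blood line on the left runs from 64.7% to 37.1%.

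Frontal cortex had a lower mean correlation with the other tissues over very long than over shorter records, by an amount that depended on the records kept. Over the 127 records alone in their interval, the mean Pearson r of frontal cortex with the other 7 tissues was 0.314 on log2(FPKM + 1), that of testes 0.490, and those of the other 6 ran from 0.588 for blood to 0.728 for ileum. Over the records of 10 to 100 kb alone in their interval, the mean r of frontal cortex was 0.584 and that of testes 0.474. The value was as low without the records kept only through frontal cortex: over the 116 that reached 1 FPKM in another tissue its mean r was 0.314, against 0.602 for the shorter ones. With no filter it was 0.412 against 0.634. Over the 39 records at 1 FPKM or more in all 8 tissues it was 0.519 against 0.640, and testes, at 0.429, then had a lower mean r than frontal cortex. Under this filter all 8 tissues had a lower mean r over the very long than over the shorter records. The shorter records had 0.556 in testes. Blood had 0.524 against 0.626, uterus 0.635 against 0.738 and mammary gland 0.662 against 0.761. These correlations run across genes, which share each library and its depth. Where frontal cortex was highest, testes were the second tissue for 23 of 48 records (47.9%), uterus for 11 (22.9%) and mammary gland for 6 (12.5%), against 30.2%, 16.3% and 8.28% for the shorter records. Where testes were highest, frontal cortex was the second for 12 of 31 (38.7%), against 20.2%.

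Very long genes took a small part of the summed FPKM of every library. The 143 records alone in their interval, 0.658% of all single-identifier autosomal records, held 0.321% of the FPKM summed over those records in frontal cortex, 0.219% in testes, 0.0776% in blood, 0.0594% in rumen and 0.133% to 0.169% in the other 4 tissues. The share was largest in frontal cortex, and in all 8 libraries it lay below the share of records.

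At the 300 kb limit, the records just inside spanned 300.4 kb at chr14:59136920-59437306 and 301.5 kb at chr1:59420221-59721760. The first had 0.0828 to 1.65 FPKM over the 8 tissues and the second 0 to 0.370. Just outside, at 299.8 kb, was an interval at chr5:44421168-44720998 with 10 records, of which 1 had 14336 FPKM in abomasum and another 3831 FPKM in nucleated blood cells and 845 in ileum. Both records inside were low and alone in their interval, and both outside were high and shared theirs.

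The number of records in an interval bears on what its length means. An interval of 348 kb at chr14:174847-523251 held 21 records, or 16.6 kb each, and 19 of the 21 were listed at 0 in all 8 libraries. An interval of 384 kb at chr29:50887060-51271520 also held 21 records, of which 14 followed the rule and 12 reached 1 FPKM, with 4 highest in rumen and 3 in testes. Of the 850 records, 106 carried an identifier that stands at another record of the table as well, and none of the 143 alone did. An example is an interval at chr4:30420508-30839424, in which 1 identifier stood at a record with 11.3 FPKM in ileum and 0 elsewhere and at another with 98.1 FPKM in blood, 0.592 in uterus and 0 elsewhere. Levels of such records, and of overlapping genes in a library type that does not mark strand, are uncertain.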

How the data were processed

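Per the labels, libraries were made with the TruSeq RNA Library Prep Kit v2. According to the study's methods, the authors filtered single-end reads, aligned them to UMD3.1 with TopHat (TopHat2 2.0.13 in the submitters' processing notes) and ran Cufflinks with default parameters. The deposited table has the layout of Cuffdiff and gives FPKM for 36801 records in 28 pairs of tissues. No FPKM differed between pairs. The authors' columns of log2 fold changes, test statistics, p-values and q-values were not used, and no very long record had a failed estimate.

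Records were grouped by span and by the number of records in their interval, with Python 3.11.15, pandas 2.3.3, numpy 2.4.6, scipy 1.17.1 and matplotlib 3.10.9. The limits were 1 FPKM for detection, a pseudocount of 1 FPKM for ratios, log2 values and tau, and 5-fold for enrichment. Ratios of FPKM + 1 understate differences of low genes. With 1 library per tissue, values were described without a test. Depth was recovered from records without an identifier of 88 to 130 bases, taken as whole reads within 0.03 of a whole number. The depth was sought near the smallest one at which at least 95% of them were whole. The 97.7% to 100% that were whole at the depth taken are therefore no separate check. Fragments were assumed to have a mean of 200 bases, an SD of 80 and a lower limit of 87, on which the reads per FPKM depend. The recovered depth carries the scaling of the authors' software, so it differs from a count of mapped reads, and reads carry no molecular identifiers. The code was tested on simulated data.

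The members, lists and limits were chosen with earlier results of these data known. Loci named are the widest, the 2 most abundant of each tissue, the 5 with the highest cortex ratio, the 5 lowest in tau, those next to 300 kb and the highest ratio in each other tissue. The split into records alone in an interval and sharing it, and the loci named from it, were chosen after the values were seen. At most 4 identifiers are printed because they could not be paired with symbols. Alternatives changed the span limit, FPKM limit, pseudocount, fold, scaling, choice of records, comparison class and libraries.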

Additional observations from a re-analysis of the deposited data

How the results depend on the processing

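Of 559 values recomputed under alternatives, 468 held within a factor of 1.5 (log2 medians within the same factor) and 91 moved. The settings for records alone in their interval, and the filters for the correlation of tissues and for records kept through another tissue, were chosen after seeing the data. Among those records frontal cortex had the largest detected share, the most records at their highest level and the highest median under every setting that kept its library, and blood the lowest detected share and median. Over all 850 records testes led in detection and in highest records, except that frontal cortex led both at 500 kb or more, with no other named record in the interval and with records alone, and led the highest records without the testes library.

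For records alone in their interval instead of all, detection was 75.5% in frontal cortex, 57.3% in uterus, 56.6% in ileum and 46.9% in rumen. The share highest was 5.51% in ileum, 4.72% in blood and 3.15% in rumen, and the share enriched 11.2% in frontal cortex, 3.50% in testes, 0.699% in blood and 0% in the other 5 tissues. Their ratios to records of 10 to 100 kb alone were 1.04 for detection in frontal cortex, 1.41, 0.287 and 0.290 for highest in ileum, blood and rumen, and 3.73, 0.475, 0.614 and 0 for enriched in frontal cortex, testes, blood and the other 5. With no other named record in the interval, detection was 74.8% in frontal cortex, 72.3% in testes, 58.1% in both uterus and ileum, 54.2% in mammary gland and 47.7% in rumen, the share highest in rumen 2.88%, and the share enriched 10.3% in frontal cortex, 3.87% in testes and 0.645% each in blood and the other 5 tissues.

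A limit of 5 FPKM lowered detection by its construction to 29.3% in testes, 27.4% in frontal cortex, 22.7% in ileum, 22.1% in uterus, 21.1% in mammary gland, 19.8% in abomasum and 17.3% in both rumen and blood, and among records alone to 44.8% in frontal cortex, 34.3% in testes and 18.9% in blood. A fold of 2 gave enriched shares of 12.9% in testes, 9.76% in frontal cortex, 2.71% in blood and 5.41% in the other 5 (alone 14.0% in testes and 22.4% in frontal cortex), and a fold of 10 gave 3.65%, 2.0%, 0.118% and 0.706% (alone 0.699% in testes and 5.59% in frontal cortex). Without a filter on low values, the median log2(FPKM + 1) was 0.72 in testes, 0.51 in frontal cortex, 0.20 in ileum, 0.17 in uterus, 0.048 in mammary gland and 0 in abomasum and rumen. With a pseudocount of 0.1, the median log2 level was 0.78 in abomasum, 0.066 in rumen and -1.32 in blood (alone -2.10 in blood), and the enriched share 2.35% in the other 5 tissues (alone 5.59% in testes). Rescaling the libraries to 1 median gave 2.10% of records alone enriched in testes.

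At 500 kb or more, the share highest was 6.33% in uterus and 1.90% in rumen and the enriched share in blood 0.717%. Among records alone it gave 17.1% enriched in frontal cortex, 8.82% highest in blood and a median log2 level of 1.45 in testes. At 200 kb or more, 7.37% of records alone were enriched in frontal cortex and 7.21% highest in blood. Against records of 100 to 300 kb instead of 10 to 100 kb, the median log2 level of the very long records differed by -1.02 in abomasum, -0.92 in mammary gland, -1.37 in blood and -1.01 in rumen, the ratio of enriched shares in blood was 1.99 and that of highest shares in rumen 0.793. Over records alone at 1 FPKM in all 8 tissues, the mean r of frontal cortex was 0.519. The cause of these shifts was not tested.

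With each library left out in turn, the share highest ran from 11.2% to 17.2% in uterus, 8.88% to 13.2% in abomasum, 5.88% to 9.66% in rumen and 3.78% to 6.11% in ileum. Among records alone it ran from 24.4% to 42.2% in testes and 4.72% to 7.14% in blood, and the enriched share in testes from 3.50% to 6.29%. Leaving out frontal cortex gave the upper values in testes, leaving out testes those of uterus, abomasum and rumen, leaving out blood that of ileum, and leaving out uterus that of blood.

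No paired analysis was possible because no result comes from a test and a tissue had a single library. Depth limits single records below about 0.681 FPKM in mammary gland and 0.264 FPKM in rumen for a transcript of 1000 bases.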

Other observations

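Chromosome X lay outside the rule. It held 28 single-identifier records with an interval of 300 kb or more, of which 15 reached 1 FPKM in a tissue, with 4 highest in testes and 4 in frontal cortex. A single one of the 28 was alone in its interval, and it was highest in frontal cortex.

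The intervals of at least 300 kb also held 112 records without an identifier, or 0.552 per megabase over 203 megabases, against 1.55 per megabase for intervals of 10 to 100 kb. Of the 112, 53 (47.3%) reached 1 FPKM in testes, 45 (40.2%) in frontal cortex, 34 (30.4%) in abomasum, 32 (28.6%) in blood, 30 (26.8%) in mammary gland, 29 (25.9%) in uterus, 29 (25.9%) in ileum and 19 (17.0%) in rumen. For the 469 such records in intervals of 10 to 100 kb, abomasum came first (47.5%), followed by uterus (43.1%), testes (41.8%), mammary gland (33.7%), ileum (33.7%), frontal cortex (33.0%), blood (32.6%) and rumen (30.9%). Their own lengths are not given, so the number of reads behind these values is unknown.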
